A study of Mus musculus with 2 samples.

Results

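Cytochrome c oxidase, or complex IV, is the last enzyme of the mitochondrial respiratory chain. It passes electrons from cytochrome c to oxygen and pumps protons across the inner membrane. Its catalytic core is encoded by mitochondrial DNA, and the smaller subunits around the core are encoded in the nucleus. Several of these smaller subunits exist as isoforms from separate genes, one used in most tissues and the other in a few. The muscle and heart isoforms of subunits 6a, 7a and 8 are Cox6a2, Cox7a1 and Cox8b, and Cox7a1 and Cox8b are also widely used as markers of brown fat. Cox4i2 is the isoform of subunit 4 known from the lung and from cells short of oxygen.

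The 9 genes described here were chosen by symbol from the RNA-Seq table, of 23361 genes with values among 27324 rows. The ubiquitous genes are Cox4i1, Cox6a1, Cox7a2 and Cox8a, and their tissue counterparts, in the same order, are Cox4i2, Cox6a2, Cox7a1 and Cox8b. Cox7a2l, a relative of the subunit 7a genes, is the ninth. Its protein is known from the joining of complex IV to complex III, and whether it does so in these cells was not tested.

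RNA-Seq was performed on C57BL/6 (C57BL/6J in the methods of the study) brown preadipocytes (D0) and on brown adipocytes after 7 days of differentiation (D7). Each stage has 1 library. The cells came from interscapular brown fat of newborn mice, and were differentiated in medium with insulin and T3. Per the labels this medium was given from some days before D0, whereas the methods describe preadipocytes grown without these additions. IBMX, dexamethasone and indomethacin were added for the first days of differentiation only. The labels call the cells primary cultures, whereas the methods of the study describe immortalization with large T antigen. Whether cells of several animals were pooled is not given in the sources used here. No replicate exists, so no p-value is given, and all ranges in parentheses below are 95% intervals for counting error only. FPKM counts fragments relative to transcript length and to the size of the library. A gene was called higher when its FPKM at D7 was at least 2.0 times that at D0, and lower when it was 0.5 times or less, the threshold of the study's methods.

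Every brown adipocyte and adipocyte marker had at least 1 FPKM at D7, but not every one was 2.0-fold higher than at D0. Of 8 brown adipocyte genes, 5 were above 0 in both libraries and 4 of those were at least 2.0-fold higher at D7. Of all genes above 0 in both libraries, 18.5% were higher. Ucp1, Cidea and Elovl3 were listed at 0 at D0 and at 4.57, 24.4 and 34.2 FPKM at D7. Prdm16 had 0.835 FPKM at D0 and 1.02 at D7. The 6 adipocyte genes summed to 71.9 FPKM at D0 and 17410 at D7, of which Fabp4 gave 14390. The 5 preadipocyte genes were present at both stages and moved in both directions. Thy1 had a ratio of 0.469, Ly6a of 0.741 and Pdgfra of 0.973, while Cd34 and Dlk1 had 8.29 and 10.8. The 5 macrophage genes were all at least 2.0-fold higher at D7, beside the same 18.5% of all genes. They summed to 129 FPKM at D0 and 402 at D7, of which Lyz2 gave 111 and 286. In bulk RNA, a change in the share of cells of a type and a change in RNA per cell cannot be told apart.

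The sequences around the start sites of the genes are given first. RefSeq entries of the mouse genome (build GRCm38.p6) were matched for 6 of the 9 genes, without Cox4i1, Cox4i2 and Cox6a2. Shown are the 250 bases before and the first 30 bases after the start of Cox7a1 and Cox8b, the tissue genes with the largest change in level, beside those of the ubiquitous genes Cox7a2, Cox8a and Cox6a1. Capitals mark matches of letters, searched on both strands. They are the letters of the TATA box (TATAAA), the ETS motif (CCGGAAG, read as CTTCCGG on the other strand) and the NRF1 motif (the first run of capitals in Cox6a1).
Cox7a1, chr7:30183921-30184200, plus strand: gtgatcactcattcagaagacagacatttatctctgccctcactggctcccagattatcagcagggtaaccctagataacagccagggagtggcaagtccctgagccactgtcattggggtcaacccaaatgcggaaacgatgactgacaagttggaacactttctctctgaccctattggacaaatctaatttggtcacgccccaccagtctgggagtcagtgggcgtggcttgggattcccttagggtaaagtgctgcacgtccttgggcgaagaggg
Cox8b, chr7:140900417-140900696, minus strand: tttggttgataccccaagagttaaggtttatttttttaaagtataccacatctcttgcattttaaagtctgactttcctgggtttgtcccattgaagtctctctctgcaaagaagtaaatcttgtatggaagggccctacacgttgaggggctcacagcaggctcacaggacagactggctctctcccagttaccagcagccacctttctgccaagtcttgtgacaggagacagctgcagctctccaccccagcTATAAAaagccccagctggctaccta
Cox7a2, chr9:79759824-79760103, minus strand: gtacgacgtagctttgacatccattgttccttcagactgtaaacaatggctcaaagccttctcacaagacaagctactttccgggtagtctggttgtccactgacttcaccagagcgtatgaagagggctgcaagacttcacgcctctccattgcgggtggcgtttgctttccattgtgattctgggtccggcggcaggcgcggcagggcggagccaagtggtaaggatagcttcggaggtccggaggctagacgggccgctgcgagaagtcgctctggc
Cox8a, chr19:7217587-7217866, minus strand: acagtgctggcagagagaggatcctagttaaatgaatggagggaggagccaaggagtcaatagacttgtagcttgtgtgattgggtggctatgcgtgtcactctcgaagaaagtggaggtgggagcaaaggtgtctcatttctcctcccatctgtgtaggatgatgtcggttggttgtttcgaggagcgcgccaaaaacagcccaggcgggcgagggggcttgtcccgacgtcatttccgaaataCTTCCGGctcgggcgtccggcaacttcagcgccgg
Cox6a1, chr5:115348929-115349208, minus strand: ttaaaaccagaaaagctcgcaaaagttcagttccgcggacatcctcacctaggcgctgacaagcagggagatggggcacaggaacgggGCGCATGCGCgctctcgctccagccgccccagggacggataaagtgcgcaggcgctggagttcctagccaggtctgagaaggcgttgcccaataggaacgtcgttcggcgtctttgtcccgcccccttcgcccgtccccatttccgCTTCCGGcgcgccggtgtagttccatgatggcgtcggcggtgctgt

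The Cox8b window held the letters TATAAA 5 to 10 bases after the annotated start, and 13.1% of 32851 promoter windows of the same length held them. Whether these letters, placed after the start, serve as a TATA box was not tested. None of the other 5 windows held these letters. The ETS motif, bound by factors such as GABP, was found in Cox6a1 and Cox8a and in 8.45% of all windows. The NRF1 motif, of a factor known for mitochondrial genes, was found in Cox6a1 and in 0.910% of all windows. Cox8b had 1 CG dinucleotide and Cox7a1 had 6, which is the median of all windows. The ubiquitous genes had more, with 15 in Cox7a2l, 17 in Cox8a, 18 in Cox7a2 and 29 in Cox6a1. The estrogen-related receptor motif TCAAGGTCA was found in none of the 6 windows and in 0.417% of all windows. Its half-site AGGTCA, which is part of that motif, was also in none of the 6 and in 15.3% of all windows. Of commoner motifs, CCAAT was in 3 of the 6 windows and in 36.1% of all, CACCC in 3 and in 55.4%, and CANNTG in 5 and in 70.1%. A match of letters in such a window is a description and not a binding site.

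Among the 9 genes, the ubiquitous isoforms of the 4 pairs were abundant at D0 and 2.23-fold to 2.96-fold higher at D7, whereas the tissue isoforms went separate ways. Of the 8 genes above 0 in both libraries, 6 were at least 2.0-fold higher at D7 and 0 were lower. Of all 14986 genes above 0 in both libraries, 18.5% were higher by this rule and 13.2% were lower. The ubiquitous genes start from high levels, and among the 810 genes with at least 100 FPKM at D0, 8.89% were higher. That last group was set after the data were seen. The median ratio of all genes was 1.01.

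**Figure D1:**
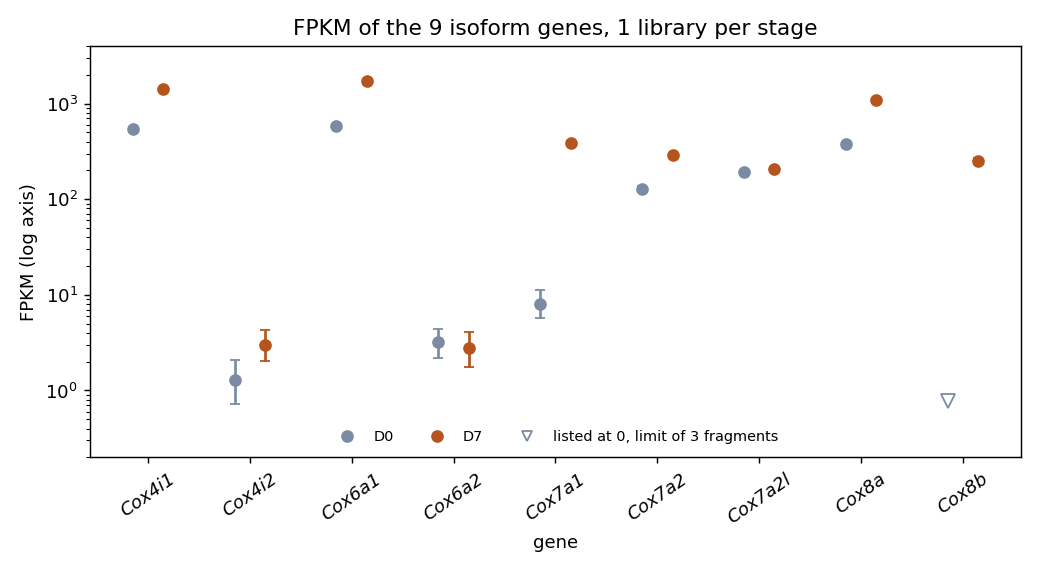
FPKM (log axis) of each of the 9 genes in the D0 and D7 libraries, with 1 point per library and 95% counting intervals as bars. The open triangle is the limit of 3 fragments for Cox8b, which was listed at 0 at D0; Cox7a1 and Cox8b are near the ubiquitous genes only at D7.

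In subunit 7a, the tissue isoform took the largest share of its pair at D7. Cox7a1, the heart and muscle form (chr7:30184144-30186078, plus strand, ENSMUSG00000074218), had 7.96 FPKM at D0 and 388.6 at D7. The ratio was 48.8 (34.9 to 68.8), or a log2 ratio of 5.61, from about 37 fragments at D0 and 1498 at D7. It ranked 127 from the top among the 14986 ratios. In order of level, Cox7a1 moved from rank 6803 of the table at D0 to rank 224 at D7.

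Cox7a2, the form of most other tissues (chr9:79755361-79759878, minus strand, ENSMUSG00000032330), had 129.1 FPKM at D0 and 287.8 at D7. The resulting ratio was 2.23 (2.08 to 2.38), the smallest among the ubiquitous isoforms of the 4 pairs. Dividing each library by its median, with values under 0.01 raised to 0.01, moved every ratio by -0.35 on the log2 scale and left Cox7a2 at 1.74, under the threshold. Cox7a1 held 5.81% (4.19 to 7.95) of the FPKM of the pair at D0 and 57.5% (55.9 to 59.0) at D7. The ratio of Cox7a1 to Cox7a2 was thus 21.9 times as high at D7 (15.4 to 30.9), a value that does not depend on scaling between the libraries.

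Whether Cox7a1 exceeded Cox7a2 at D7 depends on how length was handled. The deposited values fit a transcript length from which about 179 bases at D0 and 182 at D7 were taken off, and this raises short transcripts. That fit used single-exon genes annotated at 600 bases or more. Shorter transcripts, those of Cox7a1 and Cox8b among them, lie outside it, so their fragments and intervals carry the fit beyond its range. The Cox7a1 transcript has 393 bases and that of Cox7a2 has 659. With the full lengths, the share of Cox7a1 at D7 was 50.05%, and with fragments not divided by length it was 37.4%. Its share at D0 was 2.71% with fragments not divided by length, so the share was higher at D7 either way.

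Cox7a2l (chr17:83501918-83517330, minus strand, ENSMUSG00000024248) was the only ubiquitous gene of the 9 within 2.0-fold. Its 194.3 FPKM at D0 and 208.7 at D7 give 1.07 (1.03 to 1.12). Division by the library median turned this to 0.841, so no direction is given. Cox7a2 over Cox7a2l was 0.665 at D0 and 1.38 at D7, and the ratio of ratios was 2.07 (1.91 to 2.24). Over the 3 genes together, Cox7a2l held 58.6% of the FPKM at D0 and 23.6% at D7, while Cox7a1 held 2.40% and 43.9%. Processed pseudogenes Gm6969 and Gm10242 share stretches of about 200 bases with Cox7a2l at 100% and 90% identity, so its reads may have been split or pooled in counting. The same holds for Cox6a1, which shares 496 bases with the processed transcript AC148174.2 at 92.7% identity.

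**Figure D2:**
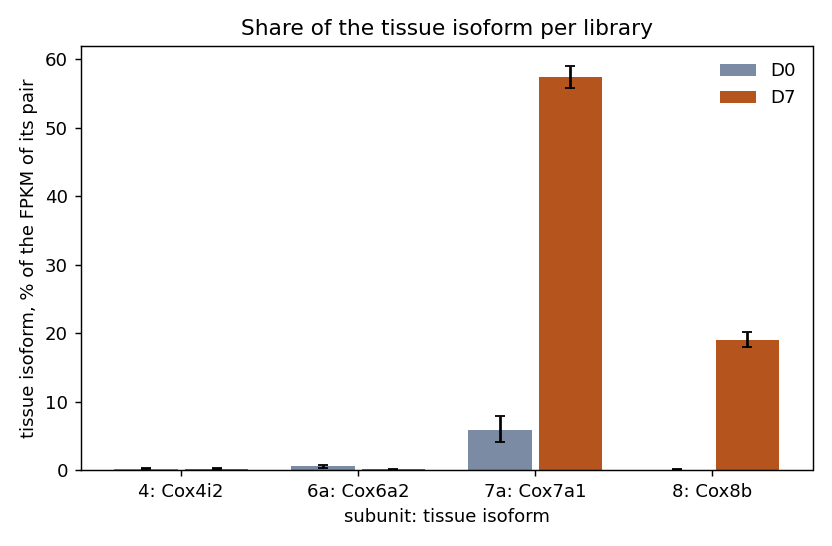
Share of the tissue isoform in the FPKM of its pair (%, bars start at 0) for subunits 4, 6a, 7a and 8 at D0 and D7, with 95% counting intervals. The share reached 57.5% for Cox7a1 and 19.0% for Cox8b at D7 and stayed under 1% for Cox4i2 and Cox6a2.

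In subunit 8, the tissue isoform appeared from a value listed at 0. Cox8b, the muscle and brown fat form (chr7:140898945-140900446, minus strand, ENSMUSG00000025488), was listed at 0 at D0 and at 253.0 FPKM at D7. The transcript is short, with 360 bases, so 3 fragments at D0 would have given 0.772 FPKM. Against this limit, Cox8b was at least 328-fold higher at D7, and the exact lower limit of the ratio, with the counting error of both libraries, was 266. Of 1012 genes listed at 0 at D0 only, it had the second highest level at D7, after Apoc1 with 435.0 FPKM and before Adig with 193.1. None of 72 ribosomal protein genes was listed at 0 in either library. They were not matched to Cox8b in length or level, so they cannot tell whether its 0 is a true absence.

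Cox8a, the form of most tissues (chr19:7215153-7217616, minus strand, ENSMUSG00000035885), had 379.9 FPKM at D0 and 1076 at D7. Its ratio was 2.83 (2.72 to 2.96). Cox8b held 0% of the pair at D0, which is a share of 0.203% at the limit of 3 fragments and 0.249% at the exact upper limit, and 19.0% (17.9 to 20.2) at D7. Against the limit of 3 fragments, Cox8b over Cox8a was at least 116 times as high at D7. With the full lengths the share at D7 was 14.8%, and with fragments not divided by length it was 10.2%. Cox8a therefore stayed the more abundant of the pair under each of these.

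In subunit 6a, the muscle isoform stayed low while the ubiquitous one was higher at D7. Cox6a1 (chr5:115345642-115348981, minus strand, ENSMUSG00000041697) had 576.1 FPKM at D0 and 1706 at D7, with a ratio of 2.96 (2.87 to 3.06), the highest among the ubiquitous isoforms. It had the highest deposited FPKM of the 9 genes in both libraries and stood at rank 18 of the whole table at D7. Cox6a2 (chr7:128205435-128206387, minus strand, ENSMUSG00000030785) had 3.20 FPKM at D0 and 2.75 at D7. The ratio of 0.860 (0.497 to 1.501) rests on about 34 and 25 fragments, and its interval spans 1.

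The share of Cox6a2 in its pair was 0.553% (0.378 to 0.762) at D0 and 0.161% (0.104 to 0.237) at D7. Cox6a2 over Cox6a1 was 0.291 times as high at D7 (0.168 to 0.508). The locus given for Cox6a2 in the table, from 128173946 to 128206366 on chromosome 7, also overlaps Itgad, an integrin gene on the opposite strand. It overlaps the noncoding genes Gm39091 and 4931431B13Rik on the same strand as well. Which of these reads come from Cox6a2 was not tested.

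In subunit 4, both isoforms were past 2.0-fold, with Cox4i1 at 422 times the level of Cox4i2 at D0 and 471 times at D7. Cox4i1 (chr8:120668222-120674207, plus strand, ENSMUSG00000031818) had 537.6 FPKM at D0 and 1418 at D7. This is a ratio of 2.64 (2.56 to 2.72). Cox4i2 (chr2:152754173-152765037, plus strand, ENSMUSG00000009876) had 1.27 FPKM at D0 and 3.01 at D7. The 2.36-fold difference (1.23 to 4.73) rests on about 15 and 30 fragments, and it was 1.76 with a pseudocount of 1 and 1.85 after division by the library median, both under the threshold. Cox4i2 held 0.237% (0.133 to 0.390) of the pair at D0 and 0.212% (0.143 to 0.303) at D7. The ratio of ratios was 0.896 (0.467 to 1.79), so a difference between the isoforms was not detectable at this depth. Cox4i1 overlaps Emc8 on the opposite strand, which had 8.003 FPKM at D0 and 11.4 at D7, and use of strand in counting is not given in the sources used here. The locus given for Cox4i1 also overlaps Gm20388, a protein-coding gene on the same strand. How reads in that overlap were counted was not tested.

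At D0 the order of levels was Cox6a1, Cox4i1, Cox8a, Cox7a2l, Cox7a2, Cox7a1, Cox6a2, Cox4i2 and Cox8b, and no neighbours above 0 had overlapping counting intervals. At D7 it was Cox6a1, Cox4i1, Cox8a, Cox7a1, Cox7a2, Cox8b, Cox7a2l, Cox4i2 and Cox6a2, and Cox4i2 and Cox6a2 overlapped. These intervals leave out the handling of length. With the full lengths, Cox4i1 (409) stood before Cox6a1 (396) at D0, and at D7 Cox7a1 and Cox7a2 had 208.7 and 208.3 FPKM and Cox7a2l (175) stood before Cox8b (125). The isoforms of a pair shared only short identical stretches of sequence. The longest identical stretch between the transcripts of a pair was 14 bases. The encoded proteins shared 64.5% of aligned residues for Cox6a1 and Cox6a2, 57.5% for Cox7a2 and Cox7a1, 50% for Cox4i1 and Cox4i2 and 42.6% for Cox8a and Cox8b.

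The nuclear subunits of complex IV without a muscle isoform give the change of the other parts of the enzyme. All 7 were at least 2.0-fold higher at D7, beside 18.5% of all genes above 0 in both libraries. Of genes with at least 100 FPKM at D0, a group without Cox7b, 8.89% were higher. Their ratios were 3.09 for Cox5b, 2.98 for Cox7b, 2.85 for Cox5a, 2.72 for Cox6b1, 2.59 for Cox6c, 2.43 for Ndufa4 and 2.38 for Cox7c. The range from 2.38 to 3.09 held the ratios of Cox4i1, Cox6a1 and Cox8a, with Cox7a2 below it.

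With both isoforms summed, subunit 7a had a ratio of 4.93 and subunit 8 of 3.50, the highest of the 11 nuclear subunits. Subunits 6a and 4 had 2.95 and 2.64. Of the FPKM added to subunit 7a between D0 and D7, 70.6% came from Cox7a1, and of that added to subunit 8, 26.7% came from Cox8b. Cox4i2 gave 0.197% of that added to subunit 4. These sums and shares use the deposited FPKM, whose handling of length raises the short transcripts of Cox7a1 and Cox8b. They were not computed with full lengths or with fragments not divided by length. The 11 subunits summed to 3556 FPKM at D0 and 10240 at D7.

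**Figure D3:**
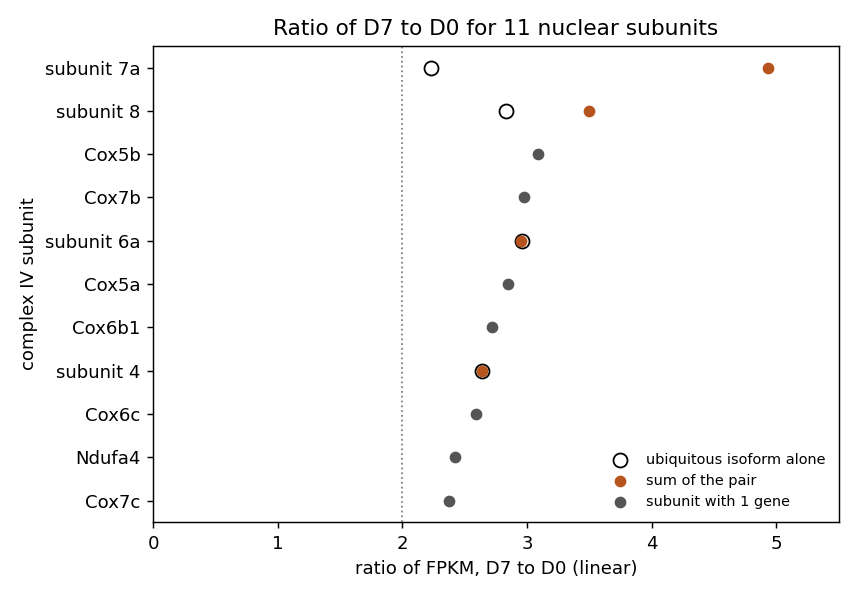
Ratio of FPKM at D7 to D0 (linear axis) for 11 nuclear subunits of complex IV, with 1 library per stage. Orange points sum the isoforms of a pair and open circles give the ubiquitous isoform alone. Grey points, labelled as subunits with 1 gene, are the subunits without a muscle isoform, with no testis isoform added. The dotted line marks 2.0-fold; subunits 7a (4.93) and 8 (3.50) lie above the others only when the tissue isoform is included.

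Of the 3 testis isoforms, none was past 2.0-fold. Cox6b2 had 23.3 FPKM at D0 and 21.0 at D7, giving 0.900 (0.718 to 1.12), and Cox7b2 and Cox8c were listed at 0 in both libraries. The 3 subunits of mitochondrial DNA were not analysed here.

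The 28 assembly factors, which insert copper and heme and join the subunits, had a smaller median ratio than the subunits. Of these, 6 were at least 2.0-fold higher at D7 and 0 were lower, and 25 had a ratio above 1. The share of 21.4% is near the 18.5% of all genes, and 4 were higher with a pseudocount of 1. The median log2 ratio was 0.69, beside 1.44 for the 7 subunits without a muscle isoform and 0.015 for all genes. The highest were Taco1, a translation factor for the mitochondrial core subunit 1, with 2.87 (2.44 to 3.37), and Pet117 with 2.42 (1.35 to 4.53). The lowest were Sco2, a copper chaperone, with 0.738 (0.640 to 0.848), and Cox18 with 0.885 (0.739 to 1.05).

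Among other mitochondrial and muscle genes with tissue isoforms, no muscle form was called higher at D7. Some of these genes, such as Cycs and Pdha1, were listed with a testis form and no muscle form. Of 18 such genes, 14 were above 0 in both libraries. Of these, 8 (57.1%) were higher and 1 (7.14%) lower by 2.0-fold, beside 18.5% and 13.2% of all genes. None of these 8 is a form named for muscle below. The 8 include Ndufa4, which was also counted above among the complex IV subunits. The median log2 ratio was 1.15. This median rests partly on genes of few fragments. It was 0.63, with 6 genes higher, over genes with at least 1 FPKM in a library, and 0.38 and 0.17 with pseudocounts of 0.1 and 1 over all 18. Of the ADP/ATP carriers, Slc25a4, the heart and muscle form, had 465.1 FPKM at D0 and 410.0 at D7, giving 0.882 (0.862 to 0.902). Slc25a5, the form of proliferating and other cells, had 183.1 and 460.7, a ratio of 2.52 (2.43 to 2.61), and Slc25a31 had at most 2 fragments per library. Fabp3, the heart fatty acid binding protein, had a ratio of 0.192 (0.150 to 0.241), and Fabp4, the adipocyte form, had 710.1 (636 to 796).

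Ckmt2, the mitochondrial creatine kinase of muscle, was listed at 0 in both libraries, and Ckmt1 had 0.0330 FPKM at D0 and 0.467 at D7. Atp2a1, the calcium pump of fast muscle, was listed at 0 at D0 with 2 fragments at D7, and Atp2a2 had a ratio of 0.695 (0.672 to 0.720). Ndufa4l2, a relative of Ndufa4 known from cells short of oxygen, had 19.8 and 22.5 FPKM. Among genes for the ATP synthase c subunit, Atp5g3 had a ratio of 2.10, Atp5g2 of 1.14 and Atp5g1 of 0.790. Cycs, somatic cytochrome c, had 4.94, and its testis form Cyct was listed at 0 at D0 with 1 fragment at D7. Pdha1 had 4.71, and its testis form Pdha2 was listed at 0 in both libraries.

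The regulators of mitochondrial genes were mixed. Of 20 genes, 7 (35%) were higher and 1 (5%) was lower by 2.0-fold, beside 18.5% and 13.2% of all genes. With pseudocounts of 0.1 and 1, 5 and 4 were higher, so the count rests partly on genes of few fragments. The median log2 ratio was 0.52, and 0.32 with a pseudocount of 1. The coactivators Ppargc1a and Ppargc1b were highest, with ratios of 119.0 (50.7 to 368) and 16.5 (10.2 to 28.2). Ppargc1a was at 0.0370 FPKM at D0, about 5 fragments, and 4.41 at D7. The lowest were Hif1a, the oxygen-regulated factor, with 0.342 (0.328 to 0.357), and the GABP subunit gene Gabpb1 with 0.552 (0.444 to 0.687). Epas1, the relative of Hif1a, had 2.01 FPKM at D0 and 24.8 at D7, and Esrra, an estrogen-related receptor, had 16.1 and 43.3.

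**Figure D4:**
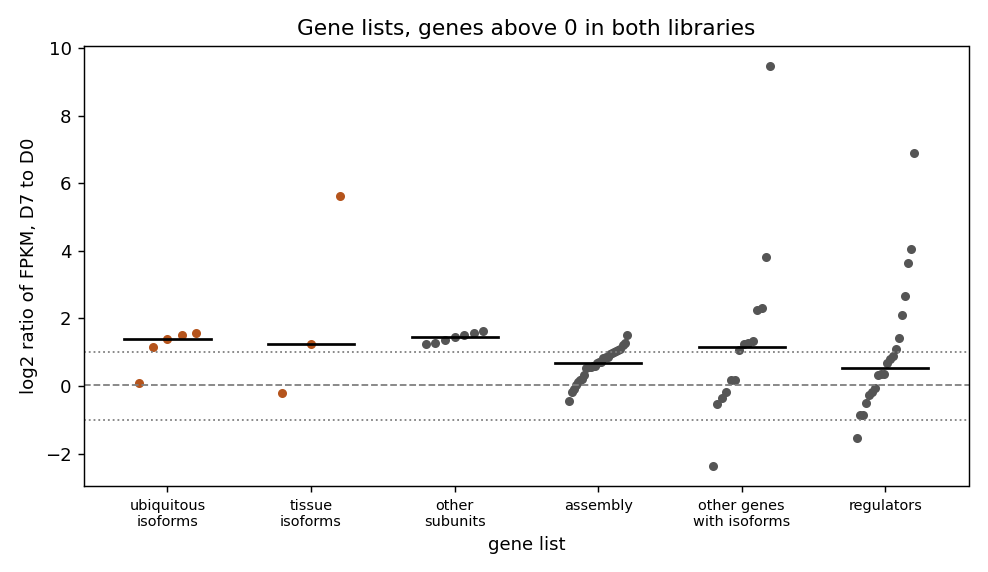
Log2 ratio of FPKM at D7 to D0 of each gene above 0 in both libraries, by list; black bars are medians, the dashed line is the median of all genes (0.015) and dotted lines mark 2.0-fold. Ubiquitous isoforms and other subunits lie close together except Cox7a2l, and Cox7a1 stands far above Cox4i2 and Cox6a2; Cox8b has no ratio and is not drawn.

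Marker genes of the tissues after which the isoforms are named were at low levels at D7, though some were higher than at D0. The 15 skeletal muscle genes summed to 49.8 FPKM at D0, of which Acta1 gave 45.4, and to 18.1 at D7, of which Mb, myoglobin, gave 12.1. Mb was listed at 0 at D0, with about 194 fragments at D7, and was at least 76.2-fold higher. Myh1, a fast muscle myosin, had about 3 fragments at D0 and 59 at D7, giving 23.5 (7.54 to 115), and Myh2 had 0 and 16. Ckm and Myod1 were listed at 0 in both libraries. The 7 heart muscle genes summed to 3.34 and 1.88, with Myh6 and Myl7 at 0 in both. The 10 genes of mural cells, which can express Cox4i2 and Ndufa4l2, summed to 205 at D0 and 107 at D7. Of these, Higd1b was at 0 in both, Rgs5 and Notch3 had the highest ratios of genes with at least 1 FPKM (2.89 and 1.91), and Pdgfrb and Cspg4 the lowest (0.340 and 0.366). The 4 endothelial genes summed to 0.995 and 2.32. The part of mural, endothelial or macrophage RNA in the values of Cox4i2 and Cox6a2 was not tested.

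By Euclidean distance in log2(FPKM + 0.1) over the 2 libraries, the genes nearest to Cox7a1 were G0s2, a lipase inhibitor (6.95 FPKM at D0 and 379 at D7), Cebpa, an adipogenic transcription factor (9.67 and 305), and Chchd10 (9.69 and 299). Nearest to Cox8b were the adipocyte genes Adig (0 and 193.1), Cidec (0.0612 and 241) and Plin1 (0.0554 and 324). Those nearest to Cox4i2 were Nkd1, Ptch1 and Epb4.1l5. With 2 libraries, this likeness is in level and ratio only.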

How the data were processed

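RNA-Seq libraries of brown preadipocytes (D0) and brown adipocytes (D7) were used, with 1 library per stage. The authors removed duplicate and rRNA reads, aligned the others to mm10 and deposited FPKM values, 1 column for each library; the methods name SOAP2 and the processing notes of the submitters name Bowtie2. Of 27324 rows, 3963 held no value. Ratios of D7 to D0 used the deposited FPKM values with no pseudocount and no rescaling, and no test was possible. Approximate fragments were recovered from 600 single-exon genes, for which all low values (at most 20 fragments; 79 at D0, 90 at D7) were whole within 0.1. The denominators were 21471372 at D0 and 18265535 at D7. Ratios and shares have exact Clopper-Pearson intervals at 95%, and ratios of ratios the exact conditional interval; they cover counting error only and take fragments as independent. A gene at 0 was given a limit of 3 fragments. Transcript lengths, gene coordinates and protein identities came from GENCODE M21, and promoters from RefSeq.

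The members and lists were chosen with earlier results of these data known. Named are all members, complex IV subunits and other isoform genes, the 2 highest and 2 lowest of each list of at least 10 genes with FPKM of 1 or more, list members in counts of 5 or fewer, and the 3 nearest genes of each tissue isoform, of which those of Cox6a2 are not reported here. Epas1, Esrra, Apoc1, Acta1, Mb, Myh1, Myh2 and Prdm16 were named after their values were seen. Scripts were tested on simulated data. The software was scipy 1.17.1, pandas 2.3.3 and numpy 2.4.6 under Python 3.11.15, with plots from matplotlib 3.10.9.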

Additional observations from a re-analysis of the deposited data

How the results depend on the processing

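The median ratio of the 8 genes above 0 in both libraries was 2.50, and 1.96 after division by the library median with a floor of 0.01. With a threshold of 4.0 instead of 2.0, 1 gene was higher instead of 6. With a pseudocount of 1, the share at D0 was 0.421% for Cox4i2 and 0.262% for Cox8b, and 4 regulators were higher instead of 7. With fragments not divided by length, the shares of Cox7a1 were 2.71% at D0 and 37.4% at D7 and that of Cox8b at D7 was 10.2%. With Cox7a2l added to the pair, the shares of Cox7a1 were 2.40% and 43.9%, and its ratio of ratios was 31.8. With full transcript lengths, an alternative chosen after seeing the data, the shares at D7 were 50.05% for Cox7a1 and 14.8% for Cox8b, and some neighbours in the order of levels changed places. Of the other values of these results, 72 stayed within their counting interval, or within 1.5 times for a count. That margin is wide for small counts. It takes in the 6 higher genes becoming 4 after division by the library median with a floor of 0.01. No paired analysis was possible because each stage has 1 library, and no library could be left out. Counting intervals hold no biological spread, so none of these differences has a replicate check. A value of 3 fragments or fewer, which is 0.772 FPKM at D0 for Cox8b, gives no level beyond its counting error.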
